A study of Rattus norvegicus with 8 samples.

Results

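The genes described here encode the serotonin receptors that lie outside the 5-HT2 class: Htr1a, Htr1b, Htr1d, Htr1f, Htr3a, Htr4, Htr5a, Htr5b, Htr6 and Htr7. They were taken by gene symbol, and all 10 were found among the 17168 genes listed for each library. The choice of this receptor family was made with earlier results of these data known. RNA was sequenced from homogenised medial prefrontal cortex of male Sprague-Dawley rats, an outbred strain. High-impulsive (HI) rats came from the top quartile of premature responding in the 1-choice serial reaction time task, where a rat has to wait for a cue before it responds, and low-impulsive (LI) rats came from the bottom quartile. There were 4 HI and 4 LI libraries. The labels name no drug, allele, age or litter for either group, and do not state that each library is a separate animal, so p-values measure the spread between these libraries, which may be technical.

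Serotonin reaches the prefrontal cortex from neurons of the raphe nuclei and acts there on several receptor families. Receptors of the 5-HT1 family couple to Gi/o proteins, lower cyclic AMP and open GIRK potassium channels. The 5-HT4, 5-HT6 and 5-HT7 receptors couple to Gs and raise cyclic AMP, the 5-HT5 receptors are linked mainly to Gi/o, and the 5-HT3 receptor is a cation channel gated directly by serotonin. A homogenate mixes all cells of the dissected tissue, so for each gene below fewer cells of a type and less RNA per cell cannot be told apart.

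The libraries held between 7354416 and 9476656 counts, of which ribosomal RNA took 0.406% to 25.5%, with HI2 the highest. Slc17a7, a vesicular glutamate transporter that marks cortical excitatory neurons, was present in every library. Of the 4 markers of serotonergic cell bodies, Fev had 0 counts in all 8 libraries, Slc6a4 had 0 to 4 counts, Tph2 had 0 to 8, and Slc18a2, the vesicular monoamine transporter, had 39 to 99. LI2 stood apart in 2 marker lists: its 9 striatal projection neuron markers summed to 876 CPM against 340 to 385 in the other libraries, and its 4 oligodendrocyte markers to 5617 CPM against 1437 to 2944. HI1 stood apart in its 4 meningeal and fibroblast markers, at 415 CPM against 13.5 to 116 elsewhere. Its 4 choroid plexus markers were also the highest, at 19.02 CPM against 1.065 to 4.959 elsewhere, with Aqp1 alone at 16.34. The 4 microglia markers summed to 154 to 173 CPM in HI and 178 to 194 in LI, without overlap. All 9 striatal, 4 oligodendrocyte, 4 microglia and 3 GABA neuron markers had lower fitted values in HI. Among those that went the other way were 6 of 8 excitatory neuron markers and the 3 meningeal markers tested. In these lists 0 markers passed an adjusted p of 0.1 (edgeR quasi-likelihood test). CPM is a count scaled to a common library total.

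Levels between genes were compared in TPM, which divides by transcript length, after the ribosomal RNA rows were removed. Htr1b and Htr1a were the highest, at 21.1 ± 6.33 and 17.04 ± 3.98 TPM (SD, n = 8), and Htr1b was above Htr1a in 6 of 8 libraries. Htr5a followed at 12.4 ± 2.14 TPM, Htr6 at 9.04 ± 1.86 and Htr3a at 6.82 ± 1.32 (SD, n = 8). Htr5a lay above Htr6 in 8 of 8 libraries, while Htr6 lay above Htr3a in 6 of 8. Htr7 stood lower, at 3.66 ± 1.42 TPM (SD, n = 8), below Htr3a in 8 of 8 libraries. The remaining genes were near the bottom of the range, with Htr1d at 2.10 ± 0.552, Htr1f at 2.05 ± 1.39, Htr5b at 0.784 ± 0.409 and Htr4 at 0.512 ± 0.495 TPM (SD, n = 8). Htr1d and Htr1f could not be ordered, since Htr1d was above in 5 of 8 libraries. Even Htr1b, the highest, had a mean TPM above only 41.3% of the genes tested, and Htr7 above 9.15%.

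**Figure D1:**
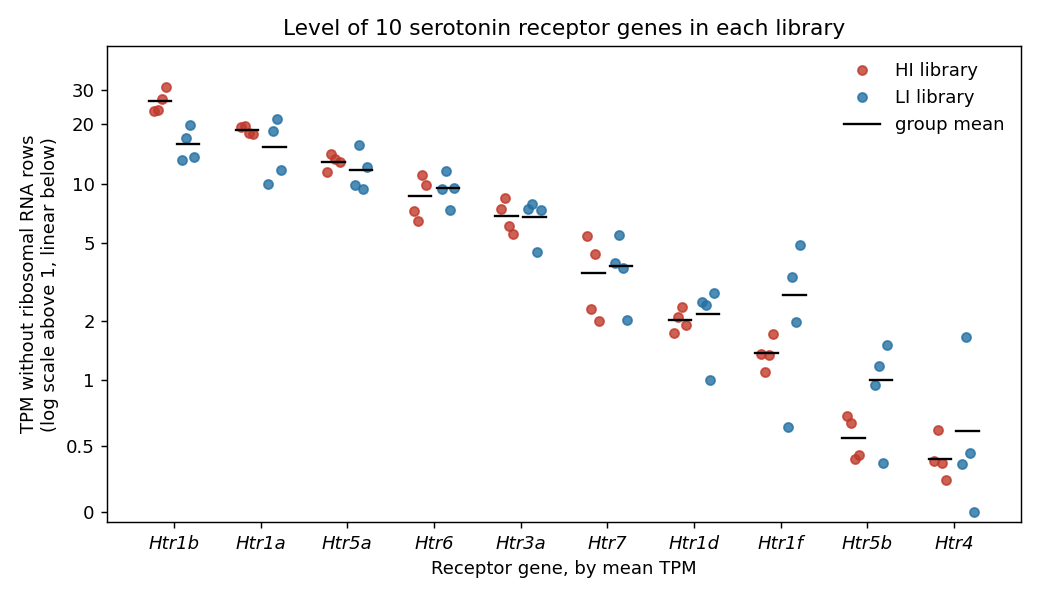
TPM of each receptor gene (vertical axis, log scale above 1 and linear below) in the 4 HI and 4 LI libraries, with genes ordered by mean TPM and black lines at group means. The HI points of Htr1b lie above its LI points, and in the other 9 genes the groups overlap.

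The deposited gene models bear on this order. The models of Htr1a, Htr1b and Htr1d are 1269, 1161 and 1125 bases long, which is 422, 386 and 374 codons and a stop. Those are the coding sequences of these receptors alone, so reads from their untranslated regions have no place in the counts. The models of Htr3a, Htr5a, Htr5b, Htr6 and Htr7, at 2002, 1946, 2218, 1924 and 1493 bases, are not whole numbers of codons and hold more than coding sequence. By CPM, which takes no account of length, Htr5a came first, ahead of Htr1b and Htr1a.

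Between HI and LI rats, Htr1b stood out among the 10 genes as the one whose groups did not overlap. Htr1b encodes an inhibitory receptor found largely on axon terminals, where it limits release of serotonin and other transmitters. In the HI libraries Htr1b stood at 11.5, 11.6, 13.8 and 15.6 CPM in replicates 1 to 4, from 111, 70, 130 and 117 counts. In the LI libraries it stood at 6.87, 8.33, 10.3 and 6.91 CPM, from 66, 66, 81 and 66 counts. The lowest HI library, HI1, was thus above the highest LI library, LI3. HI libraries averaged 13.1 ± 1.97 CPM and LI libraries 8.11 ± 1.63 CPM (SD over 4 libraries each), a ratio of 1.62. The log2 fold change was 0.70 ± 0.19 (SE), with a 95% interval from 0.27 to 1.12, and the unadjusted p was 0.00457 in edgeR's quasi-likelihood test.

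The Htr1b difference did not pass the threshold of 0.1 once p was adjusted over all 11631 genes tested (adjusted p = 1.00, edgeR quasi-likelihood test). In that test 0 genes passed (0%). An unadjusted p under 0.05 was found for 4.16% of the genes, and 3.07% of the genes had such a p with higher values in HI. The groups did not overlap in 3.46% of all tested genes, and 2.31% had every HI library above every LI library, as Htr1b did. Of all tested genes 2.12% had an absolute log2 fold change at least as large. Its p ranked 42 of 11631. DESeq2 gave Htr1b no adjusted p and called 0.488% of the genes it adjusted. Fisher's exact test on counts summed over each group, the test named by the series, called Htr1b but also 56.7% of all tested genes, 12.7% as higher and 44% as lower in HI. Its group totals included ribosomal RNA, 25.5% of the counts in HI2, and were not rescaled as in edgeR. The part of that scaling in the split of directions was not tested. Leaving out each library in turn gave log2 fold changes from 0.60 (without HI4) to 0.83 (without LI3), and it was 0.71 without LI2. Counting error alone would give a coefficient of variation of 10.6% at the mean count of Htr1b, and the libraries within groups varied by 17.02%.

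Htr1a, the receptor that inhibits raphe neurons themselves and, in cortex, pyramidal cells and interneurons, was even across HI and uneven across LI. HI1 to HI4 stood at 10.6, 10.6, 10.2 and 9.85 CPM. LI1 to LI4 stood at 5.73, 9.97, 12.3 and 6.60 CPM. LI3 was above every HI library, while LI1 and LI4 were below all of them. The SD over 4 libraries was 0.343 CPM for HI and 3.03 CPM for LI, around means of 10.3 and 8.64. Counting error alone would give a coefficient of variation of 11.3% at the mean count of Htr1a, so the HI libraries lay closer together than counting error leads one to expect. The log2 fold change of 0.26 ± 0.24 (SE) had a 95% interval from -0.28 to 0.80 (adjusted p = 1.00, edgeR quasi-likelihood test). It depended on single LI libraries, at 0.097 without LI1 and 0.48 without LI3.

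The ratio of Htr1b to Htr1a counts within a library does not depend on how libraries are scaled. For HI1 to HI4 it was 1.09, 1.09, 1.35 and 1.58, and for LI1 to LI4 1.20, 0.835, 0.844 and 1.05. LI1 lay inside the HI range and the other LI libraries lay below it. The HI libraries averaged 1.28 ± 0.236 and the LI libraries 0.982 ± 0.176 (SD over 4 libraries each).

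**Figure D2:**
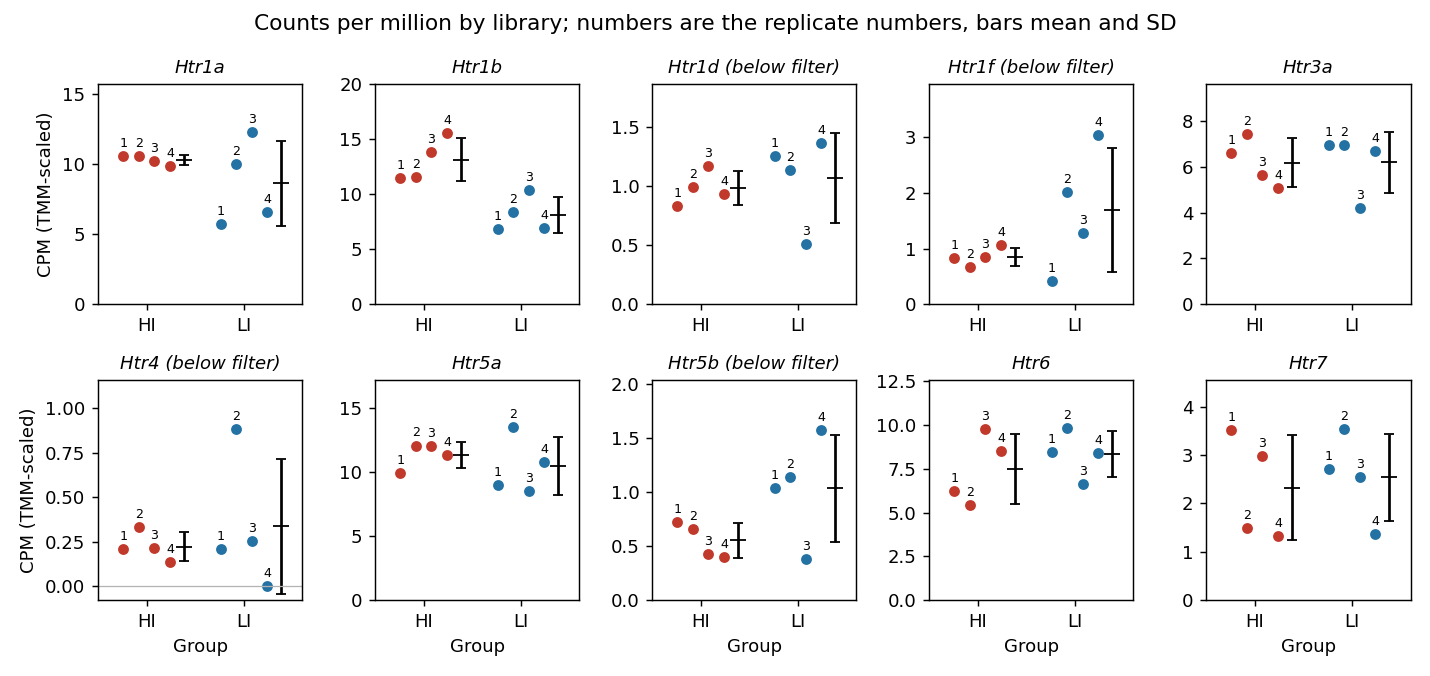
CPM of each of the 10 receptor genes by library (vertical axes differ between panels), with replicate numbers above the points and the group mean and SD at the right of each group. Htr1b separates HI from LI, and Htr1a is tight in HI and spread in LI. The highest value is in LI2 for Htr4 and in LI4 for Htr1f and Htr5b.

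The other 5-HT1 genes, Htr1d and Htr1f, were too sparse for the low-count filter. Htr1d, a terminal receptor related to Htr1b, had 8, 6, 11 and 7 counts for HI1 to HI4. LI1 to LI4 had 12, 9, 4 and 13. That is 32 against 38 counts, a depth-scaled HI to LI ratio of 0.901 with an exact Poisson 95% interval from 0.545 to 1.48, which covers counting error only. That interval includes both a lower and a higher level in HI. Htr1f, the receptor bound by lasmiditan, an acute migraine drug, had 8, 4, 8 and 8 counts in HI and 4, 16, 10 and 29 in LI. The ratio of 28 to 59 counts was 0.508, with a counting interval from 0.312 to 0.809. The HI values, 0.661 to 1.06 CPM, lay within the LI range of 0.416 to 3.04 CPM, and LI4 alone held 29 of the 59 LI counts. Fitted with no low-count filter, Htr1f had a log2 fold change of -0.97 ± 0.53 (SE), which was -0.50 without LI4 and -1.30 without LI1 (adjusted p = 0.999 over all genes, edgeR quasi-likelihood test).

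Htr3a encodes the subunit that every 5-HT3 channel needs, and in cortex it marks a class of interneurons that includes Vip and Reln cells. HI1 to HI4 stood at 6.62, 7.44, 5.63 and 5.06 CPM. LI1 to LI4 stood at 6.97, 6.94, 4.21 and 6.70 CPM. LI3 was the lowest library and HI4 the next, and these were also the libraries with the least ribosomal RNA (0.418% and 0.406%). The group means were 6.19 ± 1.06 CPM for HI and 6.21 ± 1.34 for LI (SD over 4 libraries each). The log2 fold change of -0.012 ± 0.23 (SE) had a 95% interval from -0.51 to 0.49. Of the 8 markers listed for this interneuron class, 7 were found. They summed to 1055 to 1201 CPM in HI and 894 to 1194 in LI, with LI3 the highest LI library. Cck, Cnr1 and Reln supplied most of that sum, so it says little about the other markers. Single markers differed: Npas1 was lowest in HI4 and LI3, at 9.72 and 11.7 CPM, while Sncg was highest in LI3, at 2.55 CPM. Of the 7 markers, 5 had higher and 2 lower values in HI, and 0 passed the threshold of 0.1 (quasi-likelihood test, edgeR). Vip averaged 36.4 ± 7.73 CPM over HI and 36.3 ± 6.57 over LI (SD over 4 libraries each). Reln, with the smallest p of the list, averaged 223 ± 28.7 and 173 ± 13.6 CPM, with overlapping groups and a log2 fold change of 0.36 ± 0.12 (SE, unadjusted p = 0.0119, edgeR). The part of interneuron content in the Htr3a values was not tested. With the ribosomal RNA share of each library as a covariate, the Htr3a log2 fold change was -0.14 ± 0.22 (SE). Htr3b, the partner subunit, had 1 count in HI3 and 0 in the other libraries.

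The Gs-coupled receptor genes overlapped between groups. Htr6, a receptor found almost only in brain, stood at 6.20, 5.46, 9.77 and 8.52 CPM for HI1 to HI4. LI1 to LI4 stood at 8.43, 9.84, 6.64 and 8.38 CPM. HI1 and HI2 were the lowest libraries and LI2 the highest. Its log2 fold change was -0.15 ± 0.23 (SE), with a 95% interval from -0.65 to 0.36. The direction depended on the libraries compared: the difference in mean log2 CPM was -0.63 between the libraries numbered 1 and 2, and 0.28 between those numbered 3 and 4.

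Htr7, known for roles in circadian timing and thermoregulation, stood at 3.52, 1.49, 2.97 and 1.33 CPM for HI1 to HI4. LI1 to LI4 stood at 2.71, 3.53, 2.55 and 1.36 CPM. The groups thus had nearly the same range, and the log2 fold change was -0.084 ± 0.40 (SE), with a 95% interval from -0.97 to 0.80. That interval covers both a large loss and a large gain. Htr7 had 9 to 34 counts a library, and its within-group coefficient of variation was 40.9%, where counting error alone would give 21.8%.

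Htr4, a receptor known for its abundance in striatum and hippocampus, was close to the detection floor. HI1 to HI4 had 2, 2, 2 and 1 counts, and LI1 to LI4 had 2, 7, 2 and 0. The 0 of LI4 allows up to 0.314 CPM, the level of 3 counts, which lies below the 0.883 CPM of LI2 but not below most of the other libraries. LI2, with 7 of the 18 counts in all, was also the library with the highest striatal marker sum. All 9 striatal markers were detected in every library, with sums of 340 to 385 CPM in HI and 360 to 876 CPM in LI. The part of that tissue in the Htr4 value was not tested. The Htr4 log2 fold change, with no low-count filter, was -0.55 ± 0.87 (SE), and it was 0.48 without LI2 and -0.92 with ribosomal RNA share as a covariate.

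Of the 5-HT5 pair, Htr5a was even between groups and Htr5b was sparse. Htr5a stood at 9.93, 12.1, 12 and 11.3 CPM for HI1 to HI4. LI1 to LI4 stood at 8.95, 13.5, 8.55 and 10.8 CPM. The LI range enclosed the HI range. Its log2 fold change was 0.12 ± 0.18 (SE), the smallest error of the tested receptor genes, and the 95% interval ran from -0.29 to 0.52. It was 0.26 without LI2 and 0.034 without LI3. Htr5b, whose human counterpart is a pseudogene, had 7, 4, 4 and 3 counts for HI1 to HI4. LI1 to LI4 had 10, 9, 3 and 15. In CPM LI3 lay below the lowest HI library, and LI1, LI2 and LI4 were above all HI libraries. The ratio of 18 to 37 counts was 0.520, with a counting interval from 0.279 to 0.937. The fit with no low-count filter gave -0.91 ± 0.48 (SE), or -0.63 without LI4 (adjusted p = 0.999 over all genes, edgeR quasi-likelihood test). The deposited counts of Htr5b were not whole in any of the 8 libraries, while those of the other 9 receptor genes were whole in all of them, so some Htr5b reads were shared with another transcript.

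**Figure D3:**
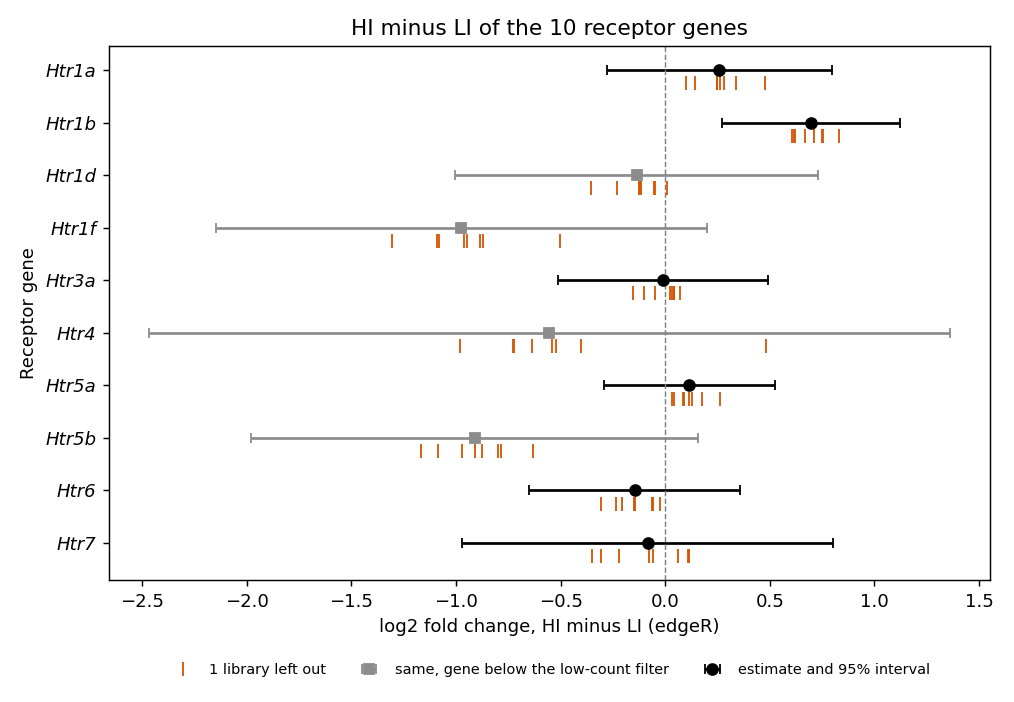
Log2 fold change of HI minus LI for each receptor gene (horizontal axis) with its 95% interval, and orange ticks for the estimate with 1 library left out. Black circles are the 6 tested genes, grey squares the 4 below the low-count filter. The interval of Htr1b, 0.27 to 1.12 with no adjustment for the number of genes, lies above 0 and those of the other 9 genes include 0.

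In all, 6 of the 10 genes passed the low-count filter (Htr1a, Htr1b, Htr3a, Htr5a, Htr6 and Htr7). Of these, 0 passed the adjusted threshold, 1 had an unadjusted p under 0.05 (Htr1b), 3 had higher and 3 lower values in HI. Among all tested genes 48.5% had higher values in HI. The median log2 fold change was 0.052 over the 6 genes and -0.0069 over all 11631, and the median SE was 0.23 against 0.19.

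As a share of all serotonin receptor TPM, the 10 genes made up 58.8 ± 3.50% for HI and 58.7 ± 4.86% for LI (SD over 4 libraries each). The remainder came almost wholly from the 5-HT2 genes, at 41.1% and 41.3%. Htr1a and Htr1b together made up 30.6% to 34.7% of receptor TPM in HI and 23.9% to 31.0% in LI. Their summed level averaged 44.95 ± 2.78 TPM for HI and 31.3 ± 8.44 for LI (SD over 4 libraries each), with the lowest HI library at 42.65 TPM and the highest LI library at 41.1. Since Htr1b enters that sum, its separation is no separate support. The Gs-coupled genes made up 9.11 ± 2.08% for HI and 11.8 ± 2.52% for LI (SD over 4 libraries each). Htr3a made up 5.01 ± 1.15% and 5.90 ± 2.02%.

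**Figure D4:**
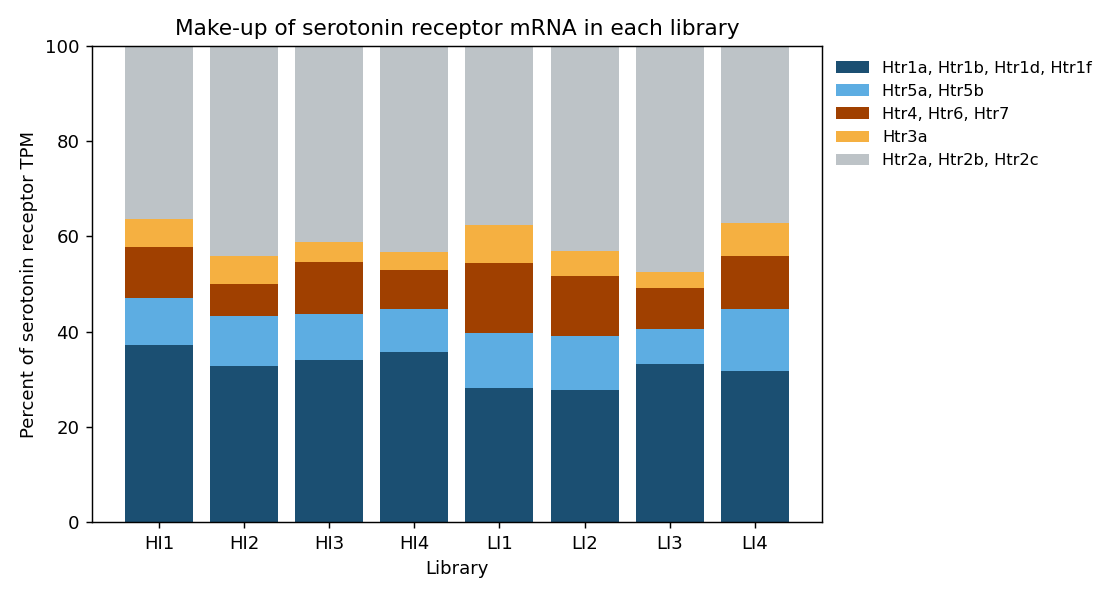
Share of serotonin receptor TPM (vertical axis, percent) taken by each receptor class in the 4 HI and 4 LI libraries, stacked to the whole. The 5-HT1 genes take 27.7% to 37.2% and the 5-HT2 genes 36.3% to 47.4% of the total.

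Genes that make, carry and transduce serotonin signals were read from the same fit. Of 37 such genes 32 were tested, 19 with higher and 13 with lower values in HI, where 48.5% of all tested genes were higher. Of the 32, 0 passed the threshold of 0.1 (quasi-likelihood test, edgeR). An unadjusted p under 0.05 was found for 1 of the 32, and for 4.16% of all tested genes, so the list did not stand out. The 1 gene was Adcy9, an adenylyl cyclase, which averaged 32.5 ± 3.82 CPM over HI and 21.8 ± 4.74 over LI (SD over 4 libraries each). Its groups overlapped, and its log2 fold change was 0.58 ± 0.17 (SE). Adenylyl cyclases are the enzymes that make cyclic AMP. Of the 8 listed, which left out Adcy4, 7 had higher values in HI, and Adcy1 differed by 0.58 ± 0.28 (SE). All 5 Gi/o and Gz alpha subunits were tested, 4 with higher values in HI, with Gnao1 at 0.14 ± 0.17 (SE) and Gnai1 at 0.12 ± 0.13. The 2 Gs-type subunits had lower values in HI, with Gnas at -0.12 ± 0.16 (SE) and Gnal at -0.099 ± 0.21. Of 4 GIRK channel genes 3 were tested and had higher values in HI, with Kcnj6 at 0.21 ± 0.18 (SE) and Kcnj3 at 0.12 ± 0.12.

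Among the 7 genes for serotonin synthesis, transport and breakdown, 5 were tested, 2 with higher and 3 with lower values in HI. Maoa, which degrades serotonin, averaged 54.3 ± 4.47 CPM over HI and 46.4 ± 3.30 over LI (SD over 4 libraries each), and the groups overlapped. Slc18a2 had a log2 fold change of -0.29 ± 0.25 (SE). Of the 7 receptor partners, chaperones and Htr1a regulators, 2 had higher and 5 lower values in HI. Deaf1 stood at -0.14 ± 0.10 (SE) and the kinase gene Cdk5 at -0.17 ± 0.17. The 5-HT2 receptor genes went both ways, with Htr2a at 0.49 ± 0.22 (SE) and Htr2c at -0.14 ± 0.37.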

How the data were processed

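4 HI and 4 LI RNA-seq libraries were analysed, grouped by their titles. Per the file headers, the authors deposited expected counts (estimated reads per gene), TPM and FPKM for 17168 genes in each library. The deposited TPM values were scaled over all rows, ribosomal RNA included, and were rescaled here without Rn45s and Rn28s. The deposited FPKM values were not used. The submitters' processing notes name Bowtie2 2.1.0. The quantifier, build, annotation and strand setting were not given in the sources used here. Coordinates are therefore not printed, and overlapping or antisense genes may share reads.

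Expected counts were rounded, filtered with filterByExpr (minimum count 10, minimum total 15), scaled by TMM and compared by the quasi-likelihood test of edgeR 4.0.16 under R 4.3.3, with Benjamini-Hochberg adjustment over 11631 genes and a threshold of 0.1, the series' own alpha. Fisher's exact test, which the series names, was run as an alternative because summed counts ignore the spread between libraries. It used raw group totals, ribosomal RNA included, without TMM. Each SE was taken from the fold change and its quasi-likelihood F (log2 fold change over root F). Genes below the filter were read from the fit without it. Between libraries of a group, chi-square per degree of freedom was at least 14.3, so none were merged. DESeq2 1.42.0 and limma 3.58.1 served as alternatives, and the tests were first run on simulated data. The receptor genes and lists were chosen with earlier results of these data known. Named genes are the 10 receptors and at most 2 genes a list, those with the smallest p, besides markers.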

Additional observations from a re-analysis of the deposited data

Results flagged for a closer look

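Among the 20 sets of 4 libraries examined (10 receptor genes in 2 groups), 1 held a library far from the rest. Htr3a stood at 4.21 CPM in LI3, while the other LI libraries lay between 6.70 and 6.97 CPM, so the gap took 0.902 of the group's range, above Dixon's 95% critical value. Chance flags about 1 in 20 such sets.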

How the results depend on the processing

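By edgeR, 0 genes were called under each filter, scaling, covariate and choice of libraries tried, and 0 by limma on log2 TPM. DESeq2 called 38 genes, 36 higher and 2 lower in HI, among 7794 to which it gave an adjusted p, and Fisher's test on the summed counts 6596, 1479 higher and 5117 lower. DESeq2 gave the 6 tested receptor genes no adjusted p, and its unadjusted p for Htr1b was 0.00154. Fisher's test called Htr1b (0.61) in that run, as it did 56.7% of the 11631 genes. Htr1f (-1.08) and Htr5b (-1.04) were called in a separate Fisher run with no low-count filter, over 14443 genes. The share of genes called in that separate run was not counted, so the calls of Htr1f and Htr5b cannot be set against it. Htr1b kept its direction in all 21 alternatives, from 0.59 to 0.83, and Htr1a in all 21, from 0.097 to 0.50. Leaving out 1 library gave -0.15 to 0.069 for Htr3a, -0.35 to 0.11 for Htr7, -0.98 to 0.48 for Htr4 and -0.35 to 0.0064 for Htr1d. With ribosomal RNA share as a covariate the 10 genes kept their direction, with Htr1b at 0.77, Htr5a at 0.076, Htr6 at -0.059 and Htr7 at -0.039. Without HI4 and LI3 together Htr7 was 0.12. Without HI2 and LI2 together, chosen after seeing the data, Htr6 was 0.063, Htr7 0.26 and Htr4 0.30. On log2 TPM Htr3a was 0.035 with a pseudocount of 0.5 and 0.038 with 0.1, and Htr4 0.083 with 0.1. Between libraries numbered 1 and 2, Htr3a was 0.012, Htr5a -0.0069 and Htr6 -0.63. Between those numbered 3 and 4, Htr1d was 0.23, Htr3a 0.0044, Htr4 0.26, Htr6 0.28 and Htr7 0.088. The cause of these turns was not tested. With the replicate number as a block, Htr3a was 0.0038, Htr1b 0.70 (adjusted p = 0.979, edgeR quasi-likelihood test), and 0 genes were called. Same-numbered libraries deviated together with correlations of 0.215, 0.536, -0.053 and 0.059 over genes, and 1 of the 4 HI libraries (HI2) correlated best with the LI library of its own number, so the numbers were not taken to pair the libraries. Counts of 0 to 29 limit Htr1d, Htr1f, Htr4 and Htr5b. The TPM order of the 10 genes was the same with TPM as deposited.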
